A study of Mus musculus with 15 samples.

Results

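The 38 genes described here encode the machinery that copies DNA, from origin licensing to nucleotide supply and the repackaging of new chromatin. They were chosen by name, as the rows of the deposited count table whose Entrez ID carries 1 of 38 listed mouse symbols. All 38 were found among 35794 Entrez IDs, and all 38 were among the 15208 genes that passed a filter on low counts. Poly(A) RNA of perigonadal fat, the depot beside the gonads, was sequenced from C57BL/6 mice aged 14 weeks. The lean group received chow throughout, the obese group a 60% high fat diet from 8 weeks of age, and the weight loss group that same diet for 5 weeks and then chow again for 1 week. The labels name no genetic alteration and do not state the sex of the mice or whether animals were pooled. The design text of the series calls the samples independent.

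Replication begins when the origin recognition complex, Cdc6 and Cdt1 load the ring-shaped MCM helicase onto DNA in G1 phase. Cdc45 and the GINS complex then switch the helicase on, primase and the replicative polymerases make the new strands, and a sliding clamp holds the polymerases in place. Most of these genes are transcribed under E2F transcription factors as cells pass from G1 into S phase, whereas mitotic genes peak later and often carry CCAAT and CHR promoter elements. In fat tissue, dividing cells are known to include macrophages and adipocyte precursors. Lower RNA from fewer cycling cells cannot be told apart here from less RNA in each cell.

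In all, 14 libraries were compared, 5 lean, 5 obese and 4 weight loss, with 13924770 to 33807887 counts each. Weight loss library 5 held 230 counts, none of them from the 38 genes, and was left out. Summed adipocyte markers lay between 20695 and 36898 CPM (counts scaled to the library's total after a TMM correction for composition) in every library, and no gene of the marker lists used was at 0 throughout. RNA typical of the epididymis varied widely. Its 14 markers summed to 1.58 to 3478 CPM in lean, 9.85 to 8637 in obese and 0.79 to 63.1 in weight loss libraries. The 4 libraries richest in epididymal RNA were obese 2, obese 5, obese 4 and lean 1. Calls below are therefore also given without them, singly or as counts over a list, which leaves 4 lean, 2 obese and 4 weight loss libraries.

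Promoter sequences were matched in RefSeq (GRCm38.p6) for 32 of the 38 genes, giving 37 promoters that run from 250 bases before the start of transcription to 50 bases after it. Mcm4, Gins1, Gins2, Gins4, Prim2 and Pole had no entry. Both strands were searched for 4 E2F-type motifs (TTTCCCGC, TTTGGCGC, TTTGCCGC and TTTCGCGC), for CCAAT and for TTTGAA, the core of the CHR element. The 4 promoters below belong to genes whose RNA differed between groups, and they show how the sites are placed. Mcm3 and Uhrf1 were shown because they changed between lean and obese fat and hold an E2F-type match. Mcm5 and Rrm2 were added after their values were seen, and the second of 2 Uhrf1 promoters is shown. Each is written 5′ to 3′ on the strand of the gene, with E2F-type and CCAAT matches on either strand in capitals.
Mcm3 (chr1:20820263-20820562, minus strand): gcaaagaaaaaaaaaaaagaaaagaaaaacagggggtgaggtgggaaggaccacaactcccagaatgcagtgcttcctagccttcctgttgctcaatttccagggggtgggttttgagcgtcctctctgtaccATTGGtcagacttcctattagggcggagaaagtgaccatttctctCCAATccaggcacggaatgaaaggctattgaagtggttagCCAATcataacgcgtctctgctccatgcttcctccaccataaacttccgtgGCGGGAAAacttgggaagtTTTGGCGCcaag
Mcm5 (chr8:75109259-75109558, plus strand): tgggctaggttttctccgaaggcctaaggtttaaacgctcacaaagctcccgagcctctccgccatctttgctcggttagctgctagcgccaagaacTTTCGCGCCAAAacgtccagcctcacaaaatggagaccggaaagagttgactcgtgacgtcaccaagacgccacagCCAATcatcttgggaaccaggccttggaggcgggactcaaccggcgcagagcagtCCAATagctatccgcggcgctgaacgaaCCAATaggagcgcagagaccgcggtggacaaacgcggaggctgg
Uhrf1 (chr17:56304063-56304362, plus strand): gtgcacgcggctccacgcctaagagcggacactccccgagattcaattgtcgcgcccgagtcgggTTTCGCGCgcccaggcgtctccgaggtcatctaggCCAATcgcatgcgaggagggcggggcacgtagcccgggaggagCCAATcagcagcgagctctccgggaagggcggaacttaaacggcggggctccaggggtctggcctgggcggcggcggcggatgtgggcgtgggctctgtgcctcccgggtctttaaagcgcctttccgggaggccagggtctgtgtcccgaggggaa
Rrm2 (chr12:24708004-24708303, plus strand): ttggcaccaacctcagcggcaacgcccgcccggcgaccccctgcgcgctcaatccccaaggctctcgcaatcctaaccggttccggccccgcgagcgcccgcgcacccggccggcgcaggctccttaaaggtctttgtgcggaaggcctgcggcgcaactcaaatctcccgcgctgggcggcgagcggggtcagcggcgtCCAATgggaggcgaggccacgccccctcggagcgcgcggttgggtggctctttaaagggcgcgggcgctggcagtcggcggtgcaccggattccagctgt

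With the first transcribed base as position 0, Mcm3 held E2F-type matches at 19 to 26 and 38 to 45, in the transcribed stretch. In Mcm5 a match at -153 to -146 on the plus strand overlapped another at -149 to -142 on the minus strand. Uhrf1 held 1 at -185 to -178, and Rrm2 held none but had a CCAAT at -50 to -46. The promoter of Tk1, whose RNA also differed between groups, is not shown and held no E2F-type, CCAAT or TTTGAA match.

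An E2F-type match was present in 13 of the 37 promoters (35.1%), against 3.7% of the 15139 promoters of all genes that passed the filter. The share was 27.9% for promoters of a list of other replication genes and 29.6% for those of G1/S regulators. The 13 promoters belonged to Orc1, Cdc6, Cdt1, Mcm3, Mcm5, Mcm6, Mcm7, Gins3, Pola1, Pold1, Rfc3, Lig1 and Uhrf1. A CCAAT was present in 22 promoters (59.5%), against 37.1%, and a TTTGAA in 4 (10.8%), against 12.6%. Of 20 promoters of a list of mitosis genes, 2 held an E2F-type match, 18 a CCAAT (90.0%) and 15 a TTTGAA (75.0%). A match describes letters in this window and does not show that a factor binds there.

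**Figure D1:**
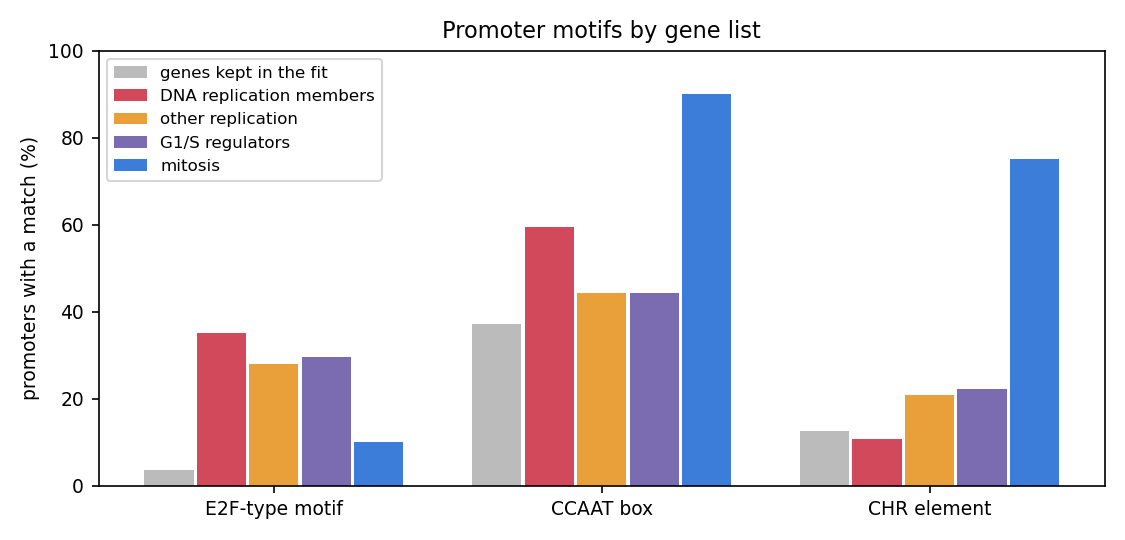
Share of promoters (%, y axis) that hold each of 3 motifs (x axis), by gene list. E2F-type motifs were present in 35.1% of promoters of the DNA replication genes, 27.9% of other replication genes, 29.6% of G1/S regulators and 2 of 20 of mitosis genes, and TTTGAA (CHR) in 10.8%, 20.9%, 22.2% and 75.0% in the same order.

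The first comparison asked how obese fat differs from lean fat. Of the 38 genes, 4 rose in obese fat and none fell. They were Rrm2 and Tk1, which supply deoxynucleotides, Uhrf1, which binds newly copied DNA methylated on 1 strand, and Mcm3, a helicase subunit. These 4 are 10.5% of the list, close to the 9.71% of all tested genes that changed in either direction (5.86% rose and 3.85% fell). DESeq2 called 6 of the 38 genes, 5 higher and 1 (Mcm7) lower, against 14.9% of all genes, and limma-voom 4, against 9.42%. The median log2 fold change of the list was 0.22, against -0.02 over all genes, with 27 values above 0 and 11 below. At an unadjusted p under 0.05 there were 10 of the 38 genes and 3766 of all 15208, a similar share. Adjusted p-values here and below are from edgeR's quasi-likelihood test with Benjamini-Hochberg adjustment over all 15208 genes, with a threshold of 0.05.

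Nucleotide supply held 2 of the 4 genes. Rrm2 (Entrez ID 20135, chromosome 12, 24708254 to 24714146) encodes the small subunit of ribonucleotide reductase, whose level is known to peak in S phase. It was at 2.76, 1.42, 3.07, 6.90 and 1.99 CPM in lean libraries 1 to 5 and at 9.07, 7.49, 7.05, 10.2 and 9.74 CPM in obese libraries 1 to 5. Every obese library was above every lean one, although lean 4 came close to obese 3. The log2 fold change was 1.43 ± 0.37 (SE), a 2.69-fold difference (edgeR adjusted p = 0.0249). The adjusted p was 0.34 without the 4 libraries rich in epididymal RNA (log2 1.27 ± 0.55), 0.0602 with epididymal level as a covariate, 0.0636 without lean 5 and 0.0547 without obese 4.

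Tk1 (Entrez ID 21877, chromosome 11, 117815519 to 117826087) encodes cytosolic thymidine kinase, the salvage enzyme of thymidine. It was at 3.17, 5.18, 3.03, 2.14 and 4.11 CPM in the lean libraries and at 6.22, 5.02, 7.16, 6.18 and 10.1 CPM in the obese ones. The groups touched, since lean 2 lay above obese 2, and obese 5 was the highest. The log2 fold change was 0.98 ± 0.28 (edgeR adjusted p = 0.0421). The call held in 10 of 23 alternatives: the adjusted p was 0.369 without the 4 rich libraries (log2 0.89), 0.0587 with the covariate, 0.0705 with no filter, and between 0.0525 and 0.119 when any 1 of lean 1, 3, 4 or 5, obese 1, 3, 4 or 5, or weight loss 2 or 3 was left out. Exons of Tk1 overlap those of Afmid by 83 bases, and whether counting used strand is not given in the sources used here.

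The other 3 genes of nucleotide supply did not pass. Rrm1, the large subunit of ribonucleotide reductase, had a log2 fold change of 0.50 ± 0.19 (edgeR adjusted p = 0.115), and Dut, which removes dUTP, had 0.17 ± 0.12. Tyms, which makes thymidylate, had the opposite sign, at -0.38 ± 0.19. The difference between the salvage enzyme and the synthesis enzyme was not tested.

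Uhrf1 (Entrez ID 18140, chromosome 17, 56303337 to 56323486) recruits the maintenance DNA methyltransferase to copied DNA. Its level was 4.91, 4.04, 2.98, 6.30 and 5.82 CPM in the lean libraries and 13.0, 8.27, 9.98, 9.74 and 11.4 CPM in the obese ones, with no overlap. The log2 fold change was 1.13 ± 0.23, or 2.18-fold (edgeR adjusted p = 0.00823), the smallest adjusted p of the 38 genes. The call held in 22 of 23 alternatives, and was lost without the 4 rich libraries, where the log2 fold change was 1.27 ± 0.35 and the adjusted p 0.125. The other chromatin genes had values above 0 and did not pass: Chaf1a and Chaf1b, subunits of the histone chaperone CAF-1, at 0.42 ± 0.20 and 0.41 ± 0.20, and Slbp, which binds histone mRNA, at 0.15 ± 0.13.

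Among the 10 licensing genes only Mcm3 (Entrez ID 17215, chromosome 1, 20802966 to 20820312) passed. It was at 14.1, 11.5, 12.7, 14.0 and 11.1 CPM in the lean libraries and at 20.8, 16.3, 17.8, 15.6 and 18.0 CPM in the obese ones. All obese libraries were above all lean ones, by a small margin. The log2 fold change was 0.48 ± 0.14 (edgeR adjusted p = 0.0419), and the call held in 7 of 23 alternatives. The adjusted p was 0.199 without the 4 rich libraries (log2 0.65), 0.0687 with the covariate, 0.0609 with library size only, 0.0751 with no filter, and between 0.0504 and 0.104 without any 1 of lean 2, 3, 4 or 5, any 1 of the 5 obese libraries, or weight loss 2 or 3.

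The 6 subunits of the MCM ring did not share 1 direction. Mcm5 had a log2 fold change of 0.61 ± 0.21 (edgeR adjusted p = 0.0848), with an adjusted p of 0.0424 without lean 1 and 0.0484 in DESeq2. For Mcm5 the edgeR adjusted p was 0.224 with the epididymal covariate (log2 0.49 ± 0.23). It was 0.349 without the 4 rich libraries (log2 0.66 ± 0.29). Mcm6 lay at 16.7 to 26.0 CPM in lean and 27.8 to 30.1 CPM in obese fat, without overlap, with a log2 fold change of 0.30 ± 0.12 (edgeR adjusted p = 0.137). Mcm7 showed the reverse order: 37.3 to 43.4 CPM in lean and 27.1 to 34.5 CPM in obese libraries, again without overlap, at -0.38 ± 0.13 (edgeR adjusted p = 0.0795). The Mcm7 difference passed as a fall in DESeq2 (adjusted p = 0.046), with only the groups compared (0.0359) and without weight loss 4 (0.0234). It did not pass with the epididymal covariate or without the 4 rich libraries. Exons of Mcm7 overlap other genes, among them Cops6 and Ap4m1. Mcm2 and Mcm4 were at 0.14 ± 0.20 and -0.05 ± 0.17. Over the list, obese libraries were all higher for 4 genes (Mcm3, Mcm6, Rrm2 and Uhrf1; 10.5%, against 6.04% of all genes) and all lower for 1 (Mcm7; 2.63%, against 4.31%).

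The loaders had log2 fold changes above 0 and none passed: Cdc6 0.57 ± 0.32, Cdt1 0.29 ± 0.21, and the origin recognition subunits Orc1 0.33 ± 0.41 and Orc6 0.20 ± 0.13. Orc1 was counted with only 8 to 37 reads per library, so a difference of its size could not be resolved.

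None of the 19 genes that activate the helicase, synthesize DNA or process the lagging strand passed the test. At an unadjusted p under 0.05 there were 2 of the 19, Rfc4 and Fen1, a smaller share than the 3766 of all 15208 genes. In helicase activation, Mcm10 had the highest value, 0.72 ± 0.36, from 10 to 75 reads per library. Cdc45 was at 0.22 ± 0.17, and the GINS subunits ran from -0.24 (Gins1) to 0.25 (Gins3). Polymerases and primase stood nearest to 0, with a median of 0.01 and a range from -0.13 (Pold1, the catalytic subunit of polymerase delta) to 0.30 (Prim1, the catalytic subunit of primase). Pola2, the second subunit of polymerase alpha, had means of 37.8 CPM (lean) and 38.6 CPM (obese), a log2 fold change of 0.03 ± 0.15. In the clamp group the median was 0.22: Pcna, the sliding clamp, was at 0.30 ± 0.18, the clamp loader subunit Rfc4 at 0.65 ± 0.28, the flap nuclease Fen1 at 0.31 ± 0.14, the ligase Lig1 at 0.16 ± 0.17 and the single-strand binding protein Rpa2 at -0.23 ± 0.15. Rfc5 was at 0.22 ± 0.21 and Rfc3 at -0.05 ± 0.25.

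**Figure D2:**
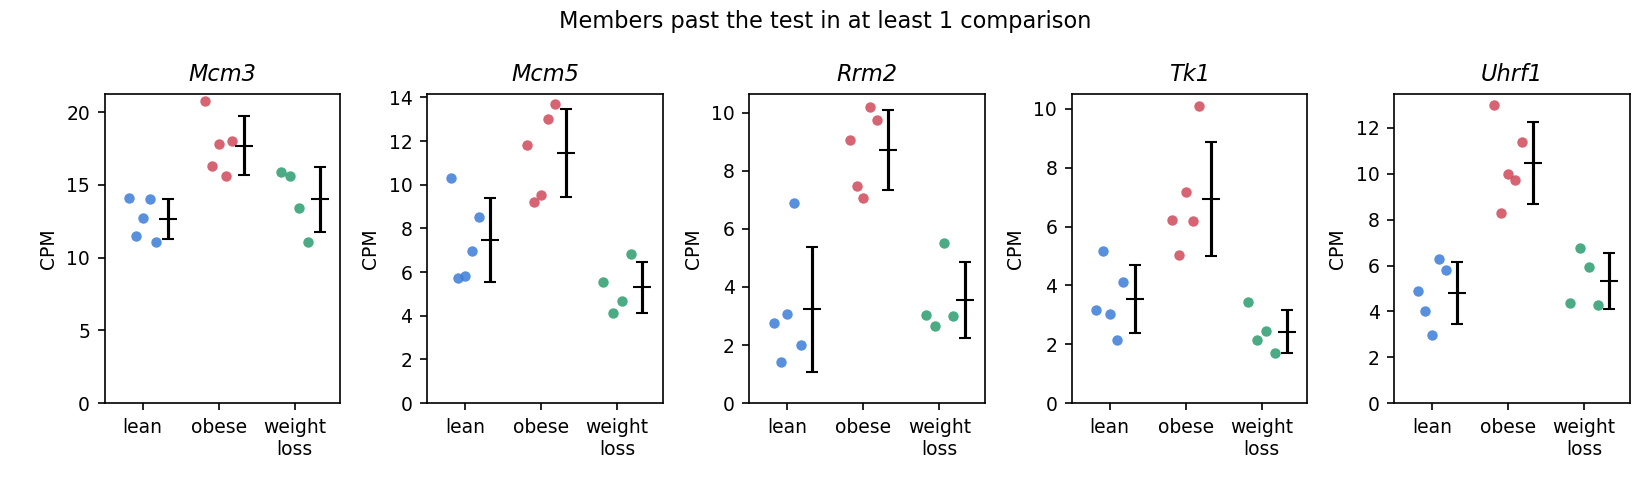
Level (CPM, y axis from 0) of the 5 genes that passed the test in at least 1 comparison, in each library (points) with the mean ± SD (bars), by group. Rrm2 and Uhrf1 in obese libraries lay above every other library, and Mcm5 and Tk1 in weight loss libraries lay below every obese one.

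The second comparison asked what a week back on chow did. It shares the 5 obese libraries with the first, so the 2 sets of values are not independent. Epididymal markers summed to 0.79 to 63.1 CPM in the weight loss libraries and 9.85 to 8637 in the obese ones. Tk1 and Mcm5 fell and no gene of the list rose. These 2 are 5.26% of the list, against 1.62% of all genes in either direction (0.736% rose and 0.881% fell). DESeq2 called 5 of the 38 genes, against 4.54% of all genes, and limma-voom 4, against 2.03%. The median log2 fold change was -0.24, against 0.02 over all genes, and 33 of 38 values were below 0, with a range from -1.51 to 0.29. At an unadjusted p under 0.05 there were 8 of the 38 genes, a larger share than the 2174 of all 15208. This difference in share was not tested.

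Tk1 was at 3.44, 2.13, 2.44 and 1.71 CPM in weight loss libraries 1 to 4, each below all 5 obese values. The log2 fold change was -1.51 ± 0.31 (edgeR adjusted p = 0.0225). Mcm5 (Entrez ID 17218, chromosome 8, 75109468 to 75128439) was at 10.3, 5.75, 5.83, 6.97 and 8.51 CPM in the lean, 11.8, 9.20, 9.55, 13.0 and 13.7 CPM in the obese, and 5.53, 4.12, 4.70 and 6.84 CPM in the weight loss libraries. Weight loss and obese libraries did not overlap, while lean values spanned part of both. The log2 fold change was -1.11 ± 0.23 (edgeR adjusted p = 0.025).

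Each of these calls held in 15 of 23 alternatives. Without the 4 rich libraries the adjusted p was 0.388 for Tk1 (log2 -1.46 ± 0.40) and 0.425 for Mcm5 (log2 -1.01 ± 0.29), and with the covariate 0.13 and 0.367. For Tk1 it lay between 0.0559 and 0.0773 without any 1 of obese 3 or 5 or weight loss 2, 3 or 4. For Mcm5 it lay between 0.0543 and 0.0871 without any 1 of obese 1, 4 or 5 or weight loss 1, 2 or 3.

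The other genes that passed in the first comparison did not pass here. Rrm2 was at 3.05, 2.64, 5.51 and 2.99 CPM, all below the lowest obese value, with a log2 fold change of -1.29 ± 0.39 (edgeR adjusted p = 0.126). The adjusted p was 0.0204 in DESeq2 and 0.0399 in limma-voom, but 0.709 with the epididymal covariate and 0.917 without the 4 rich libraries. Uhrf1 was at 4.35, 6.76, 5.92 and 4.27 CPM, again below every obese library, at -0.98 ± 0.25 (edgeR adjusted p = 0.0657), with 0.00476 in DESeq2, 0.0425 in limma-voom, 0.4 with the covariate and 0.502 without the 4 rich libraries. Mcm3 was at 15.9, 15.6, 13.4 and 11.1 CPM, at -0.34 ± 0.15 (edgeR adjusted p = 0.31), and overlapped the obese range.

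In all, 6 genes had every weight loss library below every obese one: Mcm5, Mcm6, Rrm2, Tk1, Chaf1b and Uhrf1. That is 15.8% of the list, against 3.27% of all genes, and for no gene of the list were all weight loss libraries higher, against 3.37% of all genes. Chaf1b lay at 2.71 to 3.11 CPM after weight loss and 4.27 to 5.44 CPM in obese fat, at -0.72 ± 0.21 (edgeR adjusted p = 0.122, DESeq2 0.0282). It did not pass with the epididymal covariate or without the 4 rich libraries. Cdc6 was at -0.97 ± 0.34 (edgeR adjusted p = 0.194), and its groups overlapped through obese 3, at 1.46 CPM. Values above 0 were those of Mcm4 (0.29), Mcm7 (0.14), Tyms (0.10), Rfc3 (0.08) and Pold1 (0.02). By role, medians were -0.29 for licensing, -0.35 for helicase activation, -0.13 for polymerases and primase, -0.23 for the clamp group, -0.35 for nucleotide supply and -0.54 for chromatin.

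**Figure D3:**
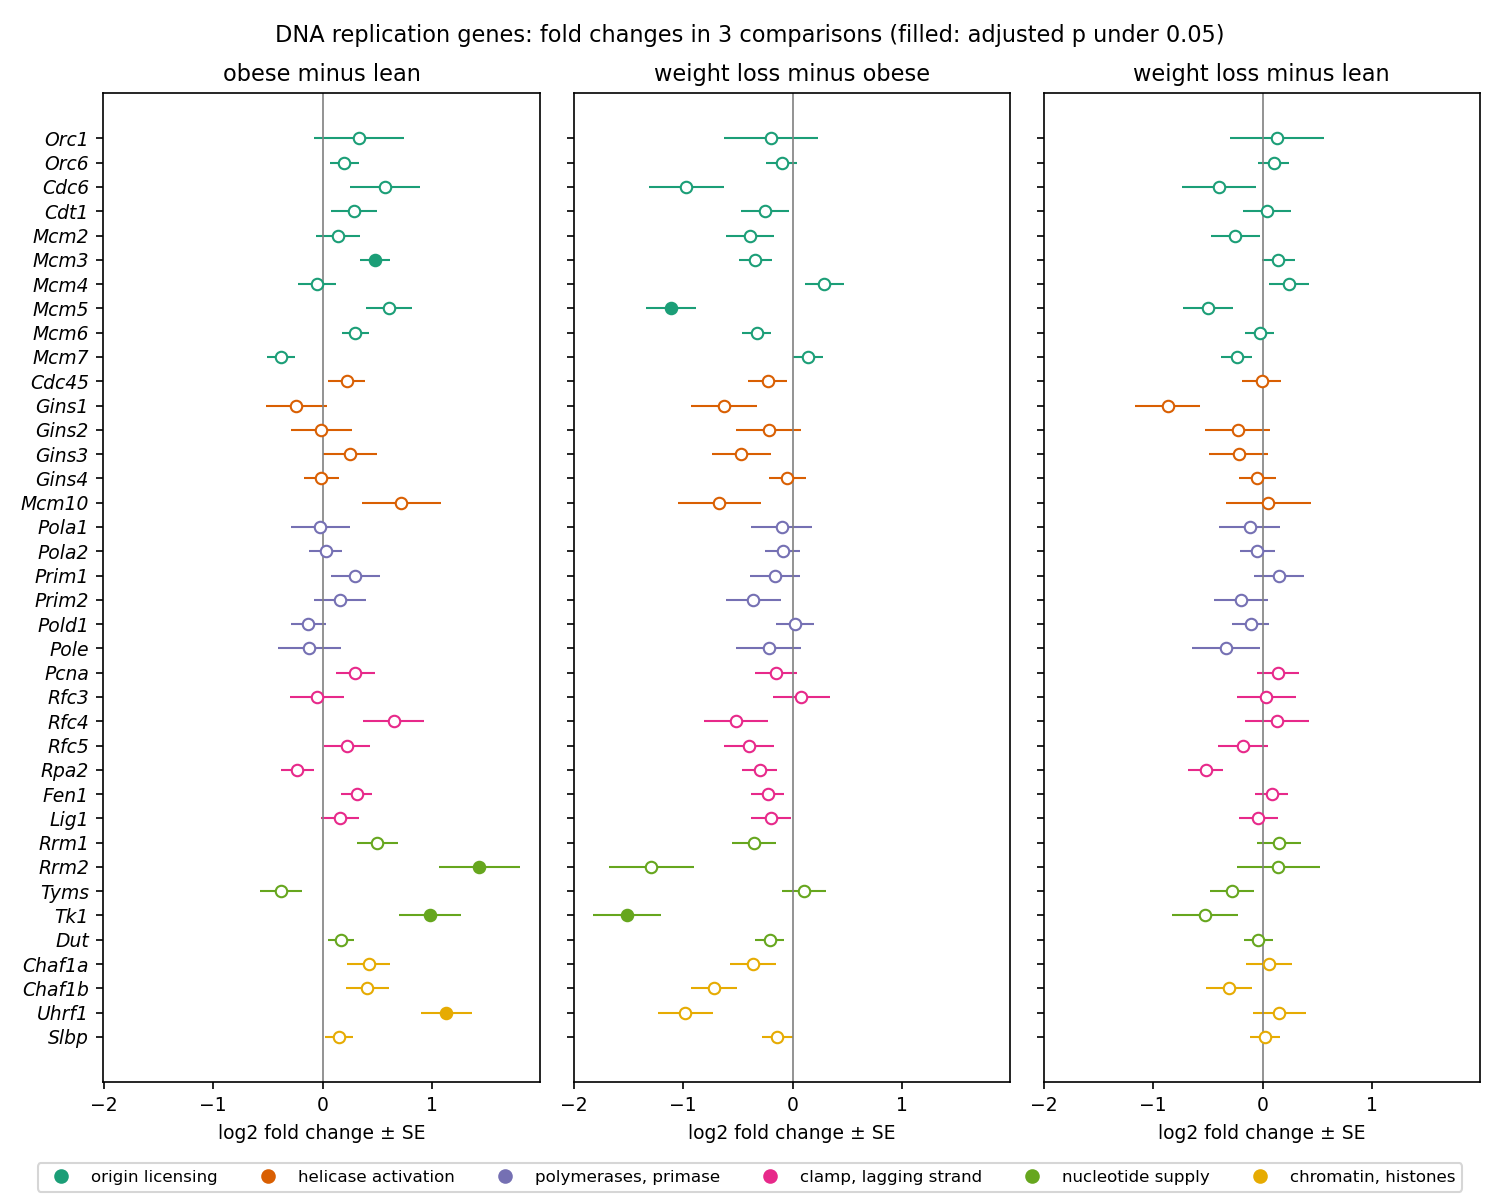
Log2 fold change ± SE (x axis) of each of the 38 genes (y axis, coloured by role) in 3 comparisons, filled where the adjusted p is under 0.05. Rrm2, Tk1, Uhrf1 and Mcm3 are filled in the first panel, Tk1 and Mcm5 in the second, and none in the third.

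The third comparison set weight loss against lean fat. None of the 38 genes passed edgeR's test, against 5 of all genes (0.0329%, all higher). DESeq2 and limma-voom also called none of the 38, against 1.72% and 0.00658% of all genes. At an unadjusted p under 0.05 there were 3 of the 38 genes, a smaller share than the 1739 of all 15208. The smallest edgeR adjusted p of the 38 was 0.236. The median was -0.04, with 16 values above 0 and 22 below. Rrm2, Uhrf1 and Mcm3 were at 0.14 ± 0.38, 0.15 ± 0.24 and 0.14 ± 0.15, while Tk1 and Mcm5 were at -0.53 ± 0.30 and -0.50 ± 0.23.

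Gins1, a GINS subunit, had the lowest value, -0.87 ± 0.30 (edgeR adjusted p = 0.304). It was at 1.81, 2.13, 1.22 and 4.11 CPM in the weight loss libraries and 3.28 to 4.73 CPM in the lean ones. Weight loss 4 stood with the lean libraries, and without it the log2 fold change was -1.33 ± 0.27 (edgeR adjusted p = 0.0382). That fit called 130 of all genes, against 5 in the main fit, so calls rose well beyond this gene. Rpa2 was the 1 gene with all weight loss libraries below all lean ones, at 17.4 to 24.0 against 27.0 to 34.3 CPM (2.63% of the list, against 0.704% of all genes), and no gene of the list was higher in all of them (1.58% of all genes). Its log2 fold change was -0.52 ± 0.16 (edgeR adjusted p = 0.236).

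Size of difference varied with level. The 11 genes with a mean of 20 CPM or more, among them Pcna, Mcm6, Mcm7 and Pola2, ran from -0.38 to 0.30 in obese against lean fat, with a median of 0.03 and none called. The 17 genes at 5 to 20 CPM had a median of 0.29 and included Rrm2, Uhrf1 and Mcm3. The 10 genes under 5 CPM, among them Tk1, Cdc6 and Mcm10, had a median of 0.37. For weight loss against obese fat the medians were -0.10, -0.25 and -0.58 in the same order. For weight loss against lean fat they were -0.05, 0.04 and -0.23. Whether genes outside the list vary with level in the same way was not tested. The median SE widened too, from 0.15 to 0.21 and 0.28 in obese against lean fat.

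Summed over the 38 genes, levels were 501 ± 22.7 CPM (SD, n = 5) in lean, 551 ± 27.6 (n = 5) in obese and 476 ± 14.8 (n = 4) in weight loss fat. The lean and obese sums overlapped, at 463 to 525 and 508 to 579 CPM, and the weight loss sums, 456 to 491 CPM, lay below the obese ones. The obese sum was 1.1 times the lean sum. The genes together took 0.0419% to 0.0594% of all counts in a library.

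Per kilobase of exon, taken as the union of GENCODE M21 exons, mean levels of subunits of 1 complex differed widely. That union pools the exons of all annotated transcripts of a gene (6956 bases for Mcm2 and 3993 for Mcm5). The order per kb therefore depends on annotated length. Among MCM subunits, which form a ring with 1 copy of each, the mean over all libraries was 7.76 CPM per kb for Mcm7, 5.42 for Mcm6, 3.96 for Mcm3, 3.81 for Mcm4, 2.07 for Mcm5 and 1.54 for Mcm2. Across libraries neighbouring ranges overlapped: 6.12 to 10.1 for Mcm7, 3.57 to 6.46 for Mcm6, 2.95 to 5.54 for Mcm3 and 2.70 to 5.18 for Mcm4. Mcm5, at 1.03 to 3.44, overlapped Mcm3, Mcm4 and Mcm2 (1.05 to 2.12). In CPM, Mcm2 stood above Mcm5 in lean fat, at means of 10.8 and 7.48, the reverse of the order per kb. In the GINS complex, Gins4 stood at 22.9 CPM per kb, the highest of the 38 genes, against 2.28 for Gins1, 1.3 for Gins3 and 1.15 for Gins2. Gins4 was level between groups, at 31.2, 31.1 and 30.1 CPM in lean, obese and weight loss fat. The lowest genes per kb were Orc1 (0.24) and Mcm10 (0.179). Exons of 13 of the 38 genes overlap another gene, including those of Chaf1a with Ubxn6 over 4648 bases and Gins2 with Gse1 over 2758 bases, so reads there may be shared or misassigned.

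**Figure D4:**
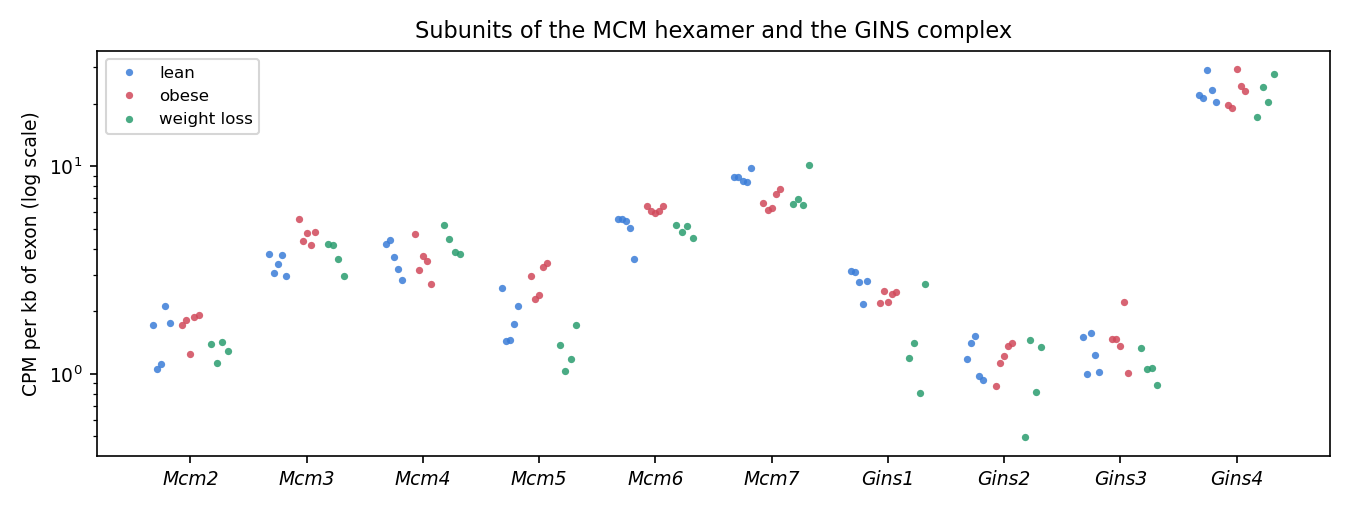
Level per kilobase of exon (CPM per kb, log scale on the y axis) of the 6 MCM and 4 GINS subunits in each of 14 libraries, coloured by group. Mean levels ran from 1.54 (Mcm2) to 7.76 (Mcm7) in the MCM ring and from 1.15 (Gins2) to 22.9 (Gins4) in GINS.

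Other cell cycle lists, chosen with earlier results known, were read beside these genes. Of 43 further replication genes, 3 passed in obese against lean fat (6.98%, below the 9.71% of all genes). Gmnn (0.86 ± 0.23, edgeR adjusted p = 0.0283), the inhibitor of Cdt1, and Dbf4 (0.94 ± 0.28, adjusted p = 0.049), the activator of the Cdc7 kinase, rose in obese fat. Tk2, the mitochondrial thymidine kinase, fell by 0.32 ± 0.09 on the log2 scale (edgeR adjusted p = 0.0371). Rnaseh2b, a subunit of ribonuclease H2, was next, at 0.57 ± 0.17, and did not pass (adjusted p = 0.0537). Without the 4 rich libraries Gmnn, Dbf4 and Tk2 did not pass, at 0.69 ± 0.35, 1.25 ± 0.37 and -0.33 ± 0.14 (edgeR adjusted p = 0.432, 0.154 and 0.34). The list's median was 0.08, and none of it was called in weight loss against obese fat.

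Of 27 regulators of G1 and S phase, 2 rose in obese fat and none fell (7.41%, below the 9.71% of all genes). E2f1, an activating E2F factor, went from 11.4 ± 1.97 CPM (SD, n = 5) in lean to 20.7 ± 2.90 (n = 5) in obese fat. It stood at 14.1 ± 3.54 (n = 4) in weight loss fat. Its log2 fold change was 0.86 ± 0.18 in obese against lean fat (edgeR adjusted p = 0.00837) and -0.55 ± 0.19 in weight loss against obese fat (adjusted p = 0.183). Cdkn1a, the cyclin-dependent kinase inhibitor p21, rose by 1.67 ± 0.19 on the log2 scale (edgeR adjusted p = 0.000148) and fell by 1.59 ± 0.21 on that scale with weight loss (adjusted p = 0.00118). Without the 4 rich libraries E2f1 was at 0.98 ± 0.26 in obese against lean fat and did not pass (edgeR adjusted p = 0.112), while both Cdkn1a differences passed (0.0125 and 0.0407). Cdkn2c, also an inhibitor, and E2f8, a repressor of E2F targets, had the next smallest p and did not pass, at -0.87 ± 0.28 and 1.28 ± 0.52. The median of the list was 0.01.

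Of 23 mitosis genes, 16 rose in obese fat (69.6%, against 9.71% of all genes), with a median of 1.38. With weight loss 7 fell (30.4%, against 1.62% of all genes), with a median of -1.24. The 4 with the smallest p were Mki67 (1.65 ± 0.19), Top2a (1.55 ± 0.19), Ube2c (1.61 ± 0.21) and Prc1 (1.51 ± 0.22). Summed mitosis levels were 74.7 ± 5.86 CPM (SD, n = 5) in lean, 180 ± 30.8 (n = 5) in obese and 80.7 ± 9.40 (n = 4) in weight loss fat. The obese sum was 2.41 times the lean sum, beside 1.1 times for the 38 replication genes. Abundant genes weigh most in a sum, and the 11 replication genes at 20 CPM or more had a median log2 fold change of 0.03. Without the 4 libraries rich in epididymal RNA, 0.811% of all genes passed in obese against lean fat, among them 5 mitosis genes and none of the 38 replication genes, a share of the 38 near that background. The difference between the lists was not tested.

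**Figure D5:**
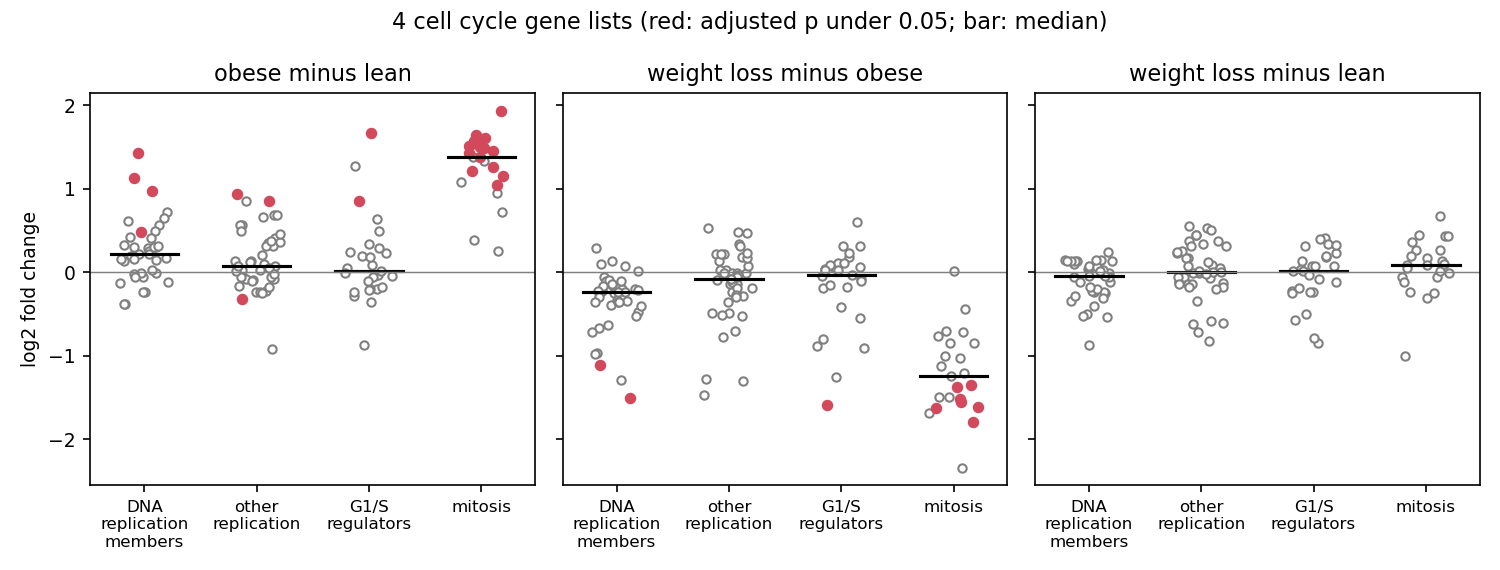
Log2 fold change (y axis) of each gene in 4 cell cycle lists (x axis), in 3 comparisons, with called genes in red and the median as a bar. In obese against lean fat the medians were 0.22 for the 38 genes, 0.08 for other replication genes, 0.01 for G1/S regulators and 1.38 for mitosis genes.

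Markers of some cell types, though not all, moved with the first comparison. Of 14 macrophage markers 9 rose in obese fat (64.3%, against 9.71% of all genes), and none was called in weight loss against obese fat. None of the 14 was called in weight loss against lean fat either, where their median log2 fold change was 0.78. Their summed level was 473 to 1023 CPM in lean, 1053 to 1628 in obese and 638 to 1483 in weight loss libraries. Of 10 adipocyte progenitor markers 4 rose (40%), with sums of 926 to 1732, 1415 to 2114 and 1363 to 2325 CPM in the same order. Of 11 adipocyte markers 4 fell (Pparg, Cebpa, Slc2a4 and Cfd) and 1 rose (Lep), together 45.5% of that list. The adipocyte markers summed to 23816 to 36898, 20695 to 26509 and 23116 to 35627 CPM. Endothelial markers summed to 828 to 1225, 965 to 1289 and 739 to 1584 CPM, and none of the 7 was called in obese against lean fat. In that comparison none of 9 lymphocyte markers tested was called, and 1 of 6 mesothelial markers rose (16.7%). Without the 4 rich libraries, none of the macrophage or mesothelial markers passed in obese against lean fat. In that fit 1 of the progenitor (higher) and 1 of the adipocyte markers (higher) passed. The part of these cell types in the values of the 38 genes was not tested.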

How the data were processed

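The authors deposited 1 table of expected counts per Entrez gene ID for 15 samples, not normalized, with 34.8% of values not whole. The build was mm10, per the submitters' processing notes. Aligner, counting tool and strand use: not given in the sources used here. The table's 36172 lines held 35794 IDs, and 74 IDs stood on more than 1 line, none with reads on more than 1. Symbols came from RefSeq for 32919 IDs.

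Counts were rounded to whole numbers. Weight loss replicate 5, below a minimum total of 1000000 set after its total was seen, was left out. The design text counts 4 weight loss samples. No paired comparison was made in the main fit.

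With R 4.3.3 and edgeR 4.0.16, genes were filtered with filterByExpr by group, scaled by TMM, and fitted over all 3 groups with glmQLFit and glmQLFTest, two-sided. Each standard error was derived by dividing the size of the log2 fold change by the root of F. CPM values use TMM-scaled totals. Alternatives were DESeq2 1.42.0, limma-voom (limma 3.58.1), other scalings, no filter, the replicate number as a block, epididymal level as a covariate, leaving out the 4 libraries richest in it, only the groups compared, and each library left out in turn, 23 in all. Mitosis counts under these settings were added after the data were seen. On simulated data, 2-fold changes in 200 of 15208 genes were recovered in 49% of cases (obese against lean), 40.5% (weight loss against obese fat) and 39.5% (weight loss and lean), with 11 of 109, 5 of 86 and 2 of 81 calls false. The simulated counts were drawn independently around the mean of all libraries. They did not include epididymal RNA that differs between libraries, so these rates do not cover it. Tables and plots used Python 3.11.15, pandas 2.3.3 and matplotlib 3.10.9.

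The 38 genes and all lists were chosen with earlier results of these data known. Values in every library are given for genes called in at least 1 comparison, and up to 4 genes with the smallest p in obese against lean fat are named from each other cell cycle list. Nothing says that samples of a group came from separate animals beyond the design text's word independent, so p-values may measure technical spread.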

Additional observations from a re-analysis of the deposited data

Results flagged for a closer look

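In 9 of 114 groups of libraries (38 genes in 3 groups), the highest or lowest library stood far from the rest. Chance gives about 1 in 20 such groups. In lean fat these were Mcm6 in lean 5, at 16.7 CPM beside 23.5 to 26.0 in the others, Fen1 in lean 4, at 17.0 beside 11.5 to 12.8, and Chaf1a in lean 1, at 11.4 beside 6.74 to 7.64. In obese fat they were Cdt1 in obese 1, at 9.41 CPM beside 5.18 to 6.38, Pold1 in obese 5, at 27.1 beside 19.0 to 20.9, and Lig1 in obese 3, at 20.0 beside 24.6 to 26.0. In weight loss fat they were Mcm7 in weight loss 4, at 44.7 CPM beside 28.8 to 30.7, Rpa2 in weight loss 1, at 17.4 beside 23.0 to 24.0, and Rrm2 in weight loss 3, at 5.51 beside 2.64 to 3.05.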

How the results depend on the processing

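Under 23 alternatives no called gene among the 38 changed sign. In obese against lean fat, calls among the 38 genes went from 4 to 2 with no filter, to 1 with the epididymal covariate and to 0 without the 4 libraries rich in epididymal RNA, with 1 to 5 when 1 library was left out (1 without lean 5 or obese 4, and 2 without lean 3, lean 4, obese 1, obese 3, obese 5, weight loss 2 or weight loss 3). The 16 mitosis calls became 5 without the 4 libraries (13 to 18 with 1 library out). The 1477 calls over all genes became 1192 with no filter, 987 with the covariate, 2260 in DESeq2 and 125 without the 4 libraries. With 1 library out they ran from 849 to 1673, with 903 without lean 5, 849 without obese 2, 887 without obese 3 and 929 without obese 4. In weight loss against obese fat, the 2 calls became 5 in DESeq2, 4 in limma-voom, 1 with the replicate block and 0 with the covariate or without the 4 libraries (0 to 3 with 1 library out: 0 without obese 5, weight loss 2 or weight loss 3, and 1 without obese 1, 3 or 4 or weight loss 1 or 4). The 7 mitosis calls became 14 in DESeq2, 4 with the covariate and 2 without the 4 libraries (6 to 8), and the 246 over all genes became 691, 34 and 20 (141 to 265, with 143 without obese 3, 141 without obese 4, 152 without obese 5 and 141 without weight loss 3). In weight loss against lean fat, the 0 calls among the 38 genes became 1 without weight loss 4 (0 to 1), and mitosis calls stayed at 0 (0 to 0). The 5 calls over all genes became 261 in DESeq2, 1 in limma-voom and 2 with the replicate block. They became 0 with the covariate, without the 4 libraries or with only the groups compared. With 1 library left out they ranged from 0 to 130, the 130 being without weight loss 4. The cause of these shifts was not tested, and fits without the 4 libraries rest on 10 of 14 samples.

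Same-numbered samples did not vary together more than others. Their correlations were -0.553 to 0.399 over 13 pairs (median 0, 4 over 0.1). Over 52 differently numbered pairs they were -0.467 to 0.604 (median 0.003, 16 over 0.1). The replicate block may therefore join samples that share only a number. Beyond the counts above, it ended the calls of Mcm3 in obese against lean fat (adjusted p = 0.0504) and Tk1 in weight loss against obese fat (0.0582), and Mcm5 passed in obese against lean fat (0.0406). Genes with few reads, such as Orc1 with 8 to 37 per library, limit what these depths can resolve.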
